A study of Mus musculus with 9 samples.

Results

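Colonies grown from mouse intestinal stem cells in a degradable polyethylene glycol (PEG) gel were compared with colonies grown in Matrigel, over all genes counted. The comparison used 6 of the 9 RNA-seq libraries of the study, 3 per matrix, and they were chosen by their labels alone. The other 3 libraries came from a non-degradable PEG gel and served to test which differences set the degradable gel apart from a synthetic gel as such. All colonies were collected on day 4. Dissociated stem cells had been embedded in the gels and expanded in every group with R-spondin and noggin, with EGF, with CHIR99021, which inhibits GSK3 and so sustains Wnt signalling, and with valproic acid, a histone deacetylase inhibitor. The sources used here do not give the strain, age or number of animals, and nothing says that libraries of 1 group came from separate cultures or animals, so p-values measure the spread between these libraries, which may be technical. What makes the gel degradable, its stiffness, its adhesion ligands and how the colonies were recovered are not given either. Matrix and handling therefore cannot be told apart.

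Matrigel is an extract of mouse tumour basement membrane, rich in laminin and collagen IV, and is the usual support for intestinal organoids. PEG is an inert synthetic polymer, and a gel made of it holds only the ligands that are built in. In the crypt, Lgr5-positive stem cells renew under Wnt signals and give rise to absorptive enterocytes and to the secretory Paneth, goblet, enteroendocrine and tuft cells. The combination of a GSK3 inhibitor and valproic acid is known for holding cultured cells in the stem cell state.

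The 6 libraries held 38016227 to 47211981 counts in genes. Markers of the labelled cells were present. Epcam, the epithelial adhesion molecule, stood at 1331, 1255 and 1247 CPM (a gene's counts scaled to the size of the library) in Matrigel replicates 1 to 3 and at 1081, 1166 and 1184 in the degradable gel. Lgr5, the stem cell receptor for R-spondin, stood at 227, 174 and 185 CPM in Matrigel and 182, 128 and 155 in the degradable gel, which overlapped. Most markers of other cells were too low to be tested. Of 13 mesenchymal markers 5 were tested, of 7 smooth muscle markers 1, of 8 endothelial markers 2 and of 14 blood cell markers 3, and none of these passed. Of 8 glia and neuron markers 4 were tested and 1, the tubulin gene Tubb3, fell (-1.83 ± 0.41 (SE; adjusted p = 0.015) on the log2 scale), a call lost without Matrigel replicate 1 or degradable PEG replicate 2 or 3. The defining markers Ptprc, Cd8a, Cdh5, Col3a1, Dcn, Actg2 and Sox10 had no count in any of the 6 libraries. The summed level of the blood cell list was 3.33 to 3.99 CPM in Matrigel and 4.62 to 5.27 in the degradable gel. The summed mesenchymal list, in which Fbln1 at 222 to 276 CPM was the most abundant gene, was 377 to 550 CPM in Matrigel and 315 to 415 in the degradable gel. Total counts were 43990192 ± 3967710 in Matrigel and 38677827 ± 600198 in the degradable gel (SD, n = 3 each; two-sided exact permutation p = 0.1, the smallest that 3 against 3 libraries allow). Mitochondrial genes took 3.35 ± 0.555% and 3.78 ± 0.607% of counts (SD, n = 3 each; exact permutation p = 0.5). On principal components of the 6 libraries, the first (62.6% of the variance) separated the matrices, and Matrigel replicate 1 stood farthest out on it, at -43.6 against -24.9 and -28.3 for the other Matrigel libraries. That library had the highest levels of many secretory and enterocyte genes, so counts are also given without it.

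Of 14870 genes tested in the edgeR fit, 1815 (12.2%) passed an adjusted p of 0.05. In the degradable gel 1103 (7.42%) were higher and 712 (4.79%) lower than in Matrigel. At least 2-fold changes were called for 4.77% of tested genes: 496 (3.34%) were at least 2-fold higher and 213 (1.43%) at least 2-fold lower, and 60 were at least 8-fold higher against 19 at least 8-fold lower. The median log2 fold change was 0.91 among the genes that rose and -0.52 among those that fell, and -0.016 over all tested genes. At an unadjusted p under 0.05 there were 4057 genes. The groups did not overlap for 4519 tested genes (30.4%) and for 1813 of the 1815 called ones. Without Matrigel replicate 1, 1086 genes passed, 722 higher and 364 lower. Leaving out Matrigel replicate 3 or degradable PEG replicate 3 gave 1177 and 1178. In bulk RNA, fewer cells of a type and less RNA per cell cannot be told apart.

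**Figure D1:**
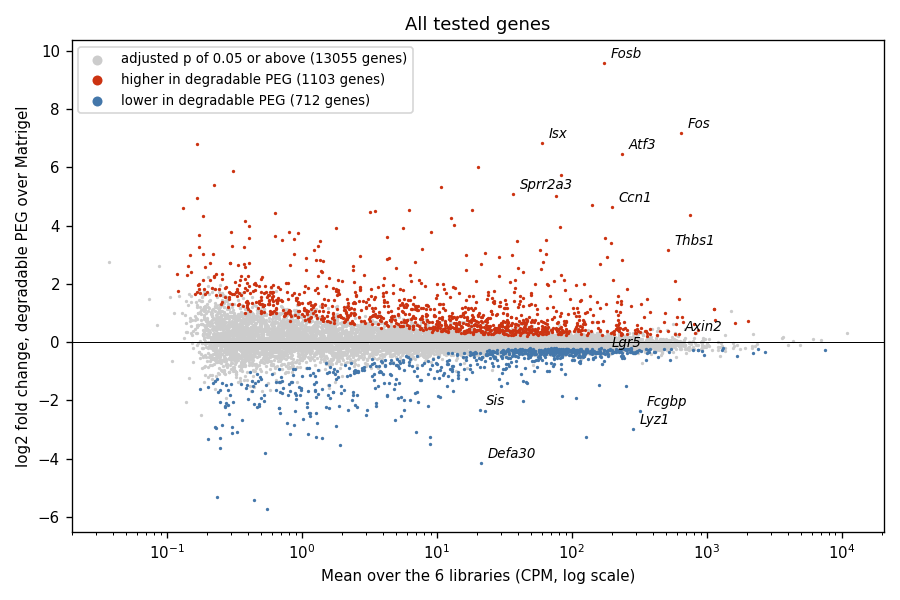
Mean level over the 6 libraries (CPM, log axis) against the log2 fold change of degradable PEG over Matrigel, 1 point per tested gene, for 14870 genes. The 1103 genes that rose reach far larger changes than the 712 that fell, with Fosb, Fos and Isx at the top and Defa30 among the lowest labelled.

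Many of the largest rises were in genes that cells switch on within minutes of a stimulus. Of 37 immediate early genes, all tested, 31 rose and none fell, with a median log2 fold change of 1.99, and 30 rose without Matrigel replicate 1. These genes encode short-lived transcription factors and feedback regulators that follow growth factors, stress and mechanical force. Fos, a subunit of the AP-1 transcription factor (ENSMUSG00000021250, chromosome 12 from 85473890 to 85477273, GRCm38), stood at 4.4, 9.64 and 12.3 CPM in the Matrigel replicates and at 1250.2, 963 and 1608 in the degradable gel. Its lowest degradable library was far above its highest Matrigel library, and the log2 fold change was 7.17 ± 0.60 (SE; adjusted p = 6.9e-05). Fosb, its close relative, went from 0.333, 0.568 and 0.418 CPM to 406, 231 and 409, a log2 fold change of 9.6 ± 1.01 (SE; adjusted p = 2.2e-04) whose size depends on the low Matrigel counts. Atf3, a stress-induced factor of the same leucine zipper class, stood at 4.58, 6.76 and 4.4 CPM against 394, 411 and 601. For all of these genes every degradable library was above every Matrigel library.

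The Egr zinc finger factors rose with them. Egr1 stood at 34.6, 103 and 74 CPM in Matrigel and 1304, 1254 and 1758 in the degradable gel, a log2 fold change of 4.35 ± 0.41 (SE; adjusted p = 1.4e-04), and Matrigel replicate 1 was its lowest library. Egr2 and Egr3 rose by 6.0 and 5.34 on the log2 scale, and Arc, an early gene best known from neurons, by 5.74. Jun, the partner of Fos in AP-1, rose less, from 201, 189 and 166 CPM to 453, 453 and 486 (log2 fold change 1.32 ± 0.17 (SE; adjusted p = 6.7e-04)), and Junb rose by 3.41. Nr4a1, an orphan nuclear receptor, rose by 3.97, Klf2, Klf4 and Klf6 of the Krüppel-like family by 3.78, 1.99 and 2.93, and Myc, which drives growth, by 1.41 on the log2 scale. Zfp36 and Ier2 had the smallest p-values of the group. Zfp36, a protein that speeds the decay of inflammatory mRNAs, stood at 25.3, 28 and 27.7 CPM against 285, 297 and 389, which is a log2 fold change of 3.58 ± 0.26 (SE; adjusted p = 4.1e-05). The 6 members that did not pass had log2 fold changes of 0.80 (Sgk1), 0.74 (Nr4a3), 0.29 (Nr4a2), 0.24 (Cebpb), 0.16 (Btg1) and -0.16 (Mcl1). Sgk1 did pass with DESeq2, upper-quartile scaling or no filter on low counts and without non-degradable PEG replicate 3 or degradable PEG replicate 1 (edgeR adjusted p of 0.038 and 0.026), and Nr4a2 with DESeq2 or upper-quartile scaling.

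Growth factors that act through the EGF receptor rose as well, though the culture medium held EGF in every group. Of 13 tested ligands, receptors and inhibitors of this family, 5 rose and none fell. Between the PEG gels, 1 of the 13 was higher in the degradable gel and none lower, with a median difference of -0.021. Hbegf, a membrane-bound ligand released by proteases, stood at 7.84, 12.7 and 11 CPM in Matrigel and at 251, 247 and 325 in the degradable gel. The groups lay far apart, with a log2 fold change of 4.7 ± 0.44 (SE; adjusted p = 1.4e-04). Ereg and Areg, further ligands, rose by 2.11 and 2.0, and Btc by 0.58 on the log2 scale, while Tgfa did not pass (0.22 ± 0.094 (SE; adjusted p = 0.16)), except without degradable PEG replicate 2 (adjusted p = 0.020). The receptor itself, Egfr, stood at 41, 36 and 35.4 CPM and 38.9, 28.6 and 38.2, which overlapped. Errfi1, an inhibitor that binds the active receptor, rose by 2.15 on the log2 scale.

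Of 16 genes that report on the ERK kinase cascade below that receptor, 10 rose and none fell, and 8 rose without Matrigel replicate 1. Between the PEG gels, 1 of the 16 was higher in the degradable gel and none lower, with a median difference of 0.25. Dusp6, a phosphatase that removes the activating phosphates of ERK, stood at 6.45, 10.1 and 7.55 CPM against 62.7, 55.3 and 73.4, with a log2 fold change of 2.98 ± 0.28 (SE; adjusted p = 1.3e-04). Dusp5 rose by 3.49, Dusp4 by 1.43, and Spry1 and Spry2, which block the cascade upstream, by 1.7 and 0.72 on the log2 scale. Etv4 and Epha2 rose by 0.66 and 1.19 on the log2 scale. Over the whole family of dual-specificity phosphatases, 11 of 19 tested members rose and none fell.

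**Figure D2:**
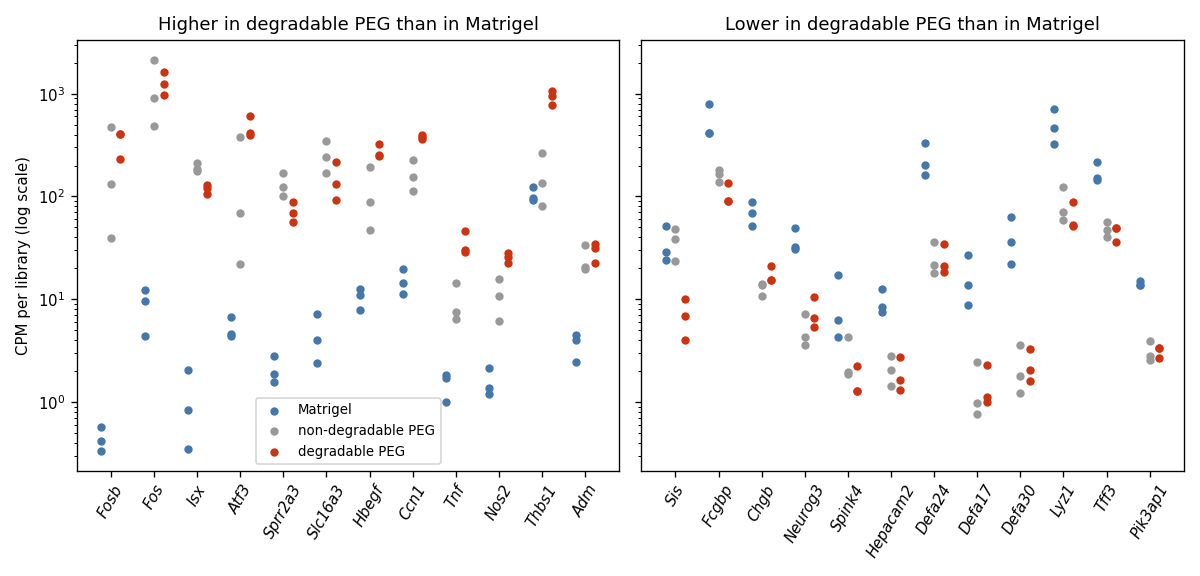
CPM in each library (log axis) for 12 genes that rose and 12 that fell in degradable PEG against Matrigel, with 3 points per matrix and the non-degradable gel in grey. For each gene the degradable and Matrigel points do not overlap, and the non-degradable points overlap the Matrigel ones only for Thbs1 and Sis.

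Serum response factor, SRF, is known to switch on part of the immediate early genes and of the actin cytoskeleton genes through the CArG box. Of 22 tested actin and SRF target genes, 10 rose and 1, Cnn3, fell (-0.24, a call that was lost without any 1 of the Matrigel libraries or without degradable PEG replicate 3). Srf itself stood at 75, 71.9 and 71.6 CPM in Matrigel and 143, 151 and 155 in the degradable gel, with a log2 fold change of 1.04 ± 0.12 (SE; adjusted p = 3.0e-04). Its groups were tight and lay apart. Actb and Actg1, the cytoplasmic actins, rose by 0.66 and 1.21, Zyx, a focal adhesion protein, by 0.97, Tpm1 by 0.37 and Lmna, the nuclear lamin A, by 0.93 on the log2 scale. Acta1, the skeletal muscle actin, is a textbook SRF target outside that list and stood at 17.3, 17.7 and 12.6 CPM against 90.8, 132 and 94.8 (log2 fold change 2.74 ± 0.24 (SE; adjusted p = 9.0e-05)). The promoters of Zfp36 and Srf, each read from 250 bases before to 50 bases after the start, are shown because both genes rose and both hold the CArG box, which is in capitals. They lie at chr7:28379179-28379478 and chr17:46556113-46556412, both on the minus strand of GRCm38.p6, as given by RefSeq.
Zfp36: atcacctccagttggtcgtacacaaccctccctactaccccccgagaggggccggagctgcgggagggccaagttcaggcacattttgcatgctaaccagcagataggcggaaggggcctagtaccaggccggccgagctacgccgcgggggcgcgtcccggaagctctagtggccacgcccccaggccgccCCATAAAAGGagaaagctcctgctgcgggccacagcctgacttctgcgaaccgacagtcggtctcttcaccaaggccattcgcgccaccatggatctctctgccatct
Srf: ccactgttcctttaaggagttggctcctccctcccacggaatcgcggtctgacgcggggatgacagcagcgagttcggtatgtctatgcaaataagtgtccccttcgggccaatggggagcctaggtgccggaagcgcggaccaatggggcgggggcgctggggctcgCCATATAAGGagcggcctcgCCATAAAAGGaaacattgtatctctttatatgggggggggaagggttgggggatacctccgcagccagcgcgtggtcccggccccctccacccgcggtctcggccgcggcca
The box begins 58 bases before the start of Zfp36, and 82 and 62 bases before that of Srf. It was found, on either strand, in 4 of 11 promoters (36.4%) of the actin and SRF genes that rose and in 5 of 32 (15.6%) of the immediate early genes that rose, against 185 of 13789 promoters (1.34%) of tested genes. A gene can have several promoters in the table, and both lists were drawn up from known targets, so these shares only describe the members.

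Of 22 tested targets of YAP and TAZ, the mechanically regulated cofactors of the Hippo pathway, 8 rose and none fell, and 6 rose without Matrigel replicate 1. Between the PEG gels, 2 were higher in the degradable gel and none lower. The median difference, degradable over non-degradable, was -0.0096. Ccn1, a secreted matrix-binding protein (chromosome 3 from 145646976 to 145649981, minus strand), stood at 11.3, 19.8 and 14.3 CPM in Matrigel and at 397, 382 and 365 in the degradable gel, with a log2 fold change of 4.65 ± 0.27 (SE; adjusted p = 9.2e-06). Its relative Ccn2 went from 2.97, 8.04 and 3.54 to 38.7, 50.6 and 33.7 CPM (log2 fold change 3.06 ± 0.30 (SE; adjusted p = 1.7e-04)). Ankrd1 rose by 3.65 from levels under 1 CPM, where the fitted size depends on few counts, and F3, the clotting initiator tissue factor, by 1.15 on the log2 scale.

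Among the genes of secreted proteins that were higher than in both other matrices was Thbs1. Thrombospondin 1, its product, is a matrix glycoprotein that can activate latent TGF-beta and binds several cell surface receptors (ENSMUSG00000040152, chromosome 2 from 118111876 to 118127133). Its level was 92.4, 123 and 96 CPM in Matrigel, 134.5, 80.5 and 267 in the non-degradable gel and 1055, 779 and 959.9 in the degradable gel. The degradable libraries were thus all above the other 6. The log2 fold change was 3.16 ± 0.35 (SE; adjusted p = 2.6e-04) against Matrigel and 2.54 ± 0.34 (SE; adjusted p = 0.011) against the non-degradable gel. Edn1, the vasoactive peptide endothelin 1, followed the same order, with 11.9, 14.8 and 8.43 CPM in Matrigel, 35.3, 21.9 and 49.5 in the non-degradable and 118, 97 and 101 in the degradable gel. Of 16 tested genes of the TGF-beta and thrombospondin list, 7 rose and 2 fell, and 1 fell without any 1 library other than degradable PEG replicate 1. The feedback genes Smad7, Skil and Tgif1 rose by 1.24, 0.72 and 0.66, and Tgfbi, a matrix protein named for its induction by TGF-beta, fell by 1.16 on the log2 scale.

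Genes of the matrix machinery passed the test in unequal shares. Of 14 tested integrins only Itgb6 rose (7.14%, against 7.42% of all tested genes) and none fell. The log2 fold change of Itgb6 was 0.38, a call lost without Matrigel replicate 1. Itgb1, Itga6 and Itgb4 had log2 fold changes of -0.12, -0.21 and 0.23. Of 27 tested matrix proteases and inhibitors, 7 rose (25.9%, against 7.42% of all tested genes) and 1 fell, a call lost without Matrigel replicate 1 or 2 or degradable PEG replicate 3. Adamts1 stood at 1.87, 5.18 and 5.11 CPM against 15.6, 15 and 17.8 and rose by 1.98, Plaur, the urokinase receptor, rose by 2.28, Plat, tissue plasminogen activator, by 1.93 and Mmp15, a membrane-bound metalloproteinase, by 0.70 on the log2 scale. Mmp14, the main membrane-bound collagenase, stood at 139.9, 105 and 90.9 CPM and 107, 88.8 and 68.6, which overlapped. Mmp7, a matrilysin made by Paneth cells, rose by 0.79 on the log2 scale, a call lost without degradable PEG replicate 1 (adjusted p = 0.069) and without Matrigel replicate 2 or 3 (0.11 in both). Of 18 tested basement membrane genes, 5 rose (27.8%, and 3 genes without Matrigel replicate 1) and 2, Nid2 and Hspg2, fell, with log2 fold changes of -0.32 and -0.29. Both of these calls were lost when replicate 1 or 3 of Matrigel, 1 or 2 of the non-degradable gel or 2 or 3 of the degradable gel was left out, and that of Hspg2 also without Matrigel replicate 2. Lamb1, a laminin chain, stood at 7.78, 13 and 10.2 CPM against 20.6, 19.3 and 22.9 (log2 fold change 1.01 ± 0.17 (SE; adjusted p = 0.0031)), and Col18a1 rose by 1.31. Lama5, the major epithelial laminin chain, had a log2 fold change of 0.26 ± 0.11 (SE; adjusted p = 0.14).

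Inflammatory genes of the NF-kB pathway rose almost throughout. NF-kB is held in the cytoplasm by its inhibitor, which it induces in turn, and in epithelium it drives chemokines that call in neutrophils and lymphocytes. Of 27 tested members of the list, 23 rose and none fell, with a median log2 fold change of 1.23, and 19 rose without Matrigel replicate 1. Tnf, the cytokine (chromosome 17 from 35199381 to 35202007, minus strand), stood at 0.999, 1.81 and 1.7 CPM in Matrigel and 28.8, 30.2 and 46.2 in the degradable gel, a log2 fold change of 4.53 ± 0.35 (SE; adjusted p = 4.1e-05). Blood cells are its usual source. Of 14 blood cell markers Ptprc and Cd8a had no count, the macrophage marker Cd68 was the most abundant at 1.18 to 2.57 CPM, and the sum was 3.33 to 3.99 CPM in Matrigel and 4.62 to 5.27 in the degradable gel. The 3 tested markers had log2 fold changes of 0.49 to 1.5 that did not pass, and their part in the level of Tnf was not tested. Of the chemokines, Cxcl1 rose from 0.845, 1.39 and 1.45 CPM to 13.9, 22.8 and 35.5 (4.28 ± 0.49 (SE; adjusted p = 3.4e-04)), Cxcl2 by 4.51, Cxcl10 by 3.6, Cxcl5 by 1.67 and Ccl20 by 1.39 on the log2 scale. Degradable PEG replicate 1 was the lowest of its group for each of these 5. The feedback inhibitors Nfkbia and Tnfaip3 rose by 2.31 and 2.14, and the subunits Relb and Nfkb2 by 0.95 and 0.87 on the log2 scale, while Nfkb1 did not pass (-0.17 ± 0.067 (SE; adjusted p = 0.14)). Lif, a cytokine of the IL-6 family, went from 2.43, 3.12 and 2.6 CPM to 12.5, 10.9 and 12.7 and rose by 2.14 on the log2 scale.

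The promoters of Cxcl1 (chr5:90890995-90891294, plus strand) and Nfkbia (chr12:55492598-55492897, minus strand; GRCm38.p6, RefSeq) are shown for the kappaB site that NF-kB binds, in capitals. The search for this site was added after the values were seen.
Cxcl1: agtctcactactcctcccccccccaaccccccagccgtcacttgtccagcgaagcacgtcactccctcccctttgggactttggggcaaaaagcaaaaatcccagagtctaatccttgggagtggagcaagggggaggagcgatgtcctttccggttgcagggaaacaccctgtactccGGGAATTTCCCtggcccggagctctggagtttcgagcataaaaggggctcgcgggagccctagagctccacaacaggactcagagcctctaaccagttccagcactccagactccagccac
Nfkbia: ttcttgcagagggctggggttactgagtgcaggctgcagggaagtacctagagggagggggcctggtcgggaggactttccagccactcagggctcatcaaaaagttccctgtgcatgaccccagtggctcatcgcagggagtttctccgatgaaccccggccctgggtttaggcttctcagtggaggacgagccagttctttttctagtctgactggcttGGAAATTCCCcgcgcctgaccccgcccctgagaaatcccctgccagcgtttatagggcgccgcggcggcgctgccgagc
The site begins 29 bases before the start of Nfkbia. In Cxcl1 a pair of overlapping matches begins 71 and 70 bases before the start. It was found in 13 of 22 promoters (59.1%) of the listed genes that rose, in 104 of 1019 (10.2%) of all genes that rose and in 721 of 13789 (5.23%) of tested genes. The list names known NF-kB targets and a gene can have several promoters, so these shares only describe the members.

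The epithelial NADPH oxidase rose with them. Nox1, its catalytic subunit, which makes superoxide at the surface of colon cells, stood at 0.512, 0.40 and 0.616 CPM in Matrigel, 4.73, 1.98 and 3.37 in the non-degradable and 14.1, 8.53 and 13.1 in the degradable gel. The log2 fold change was 4.54 ± 0.35 (SE; adjusted p = 4.1e-05) against Matrigel. The further subunits Noxa1, Noxo1 and Cyba rose by 1.64, 0.98 and 1.3 on the log2 scale. Nos2, the inducible nitric oxide synthase, stood at 1.36, 1.2 and 2.14 CPM against 28.1, 22.4 and 25.6 and rose by 4.02 on the log2 scale. Among 15 tested defence genes, 6 rose and 3 fell, and those that fell were the secreted proteins Reg1, Reg4 and Ang4. Each of these 3 calls was lost without Matrigel replicate 1, which had the highest Matrigel level of all 3, and also without degradable PEG replicate 2 or 3. That of Reg4 was also lost without Matrigel replicate 3 or any 1 of the non-degradable libraries.

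Genes of low oxygen and of glycolysis formed the next group. HIF, the hypoxia-inducible factor, is stabilised when oxygen falls and switches on glucose uptake, glycolysis and lactate export, often through the letters ACGTG. Of 31 tested hypoxia genes 21 rose and none fell, with a median log2 fold change of 0.87, and 21 rose without Matrigel replicate 1. Of 19 tested glycolysis genes 13 rose and none fell, with a median of 0.86. Slc16a3, the lactate exporter MCT4 (chromosome 11 from 120948480 to 120960868), stood at 2.41, 3.98 and 7.2 CPM in Matrigel and 93.3, 131 and 218 in the degradable gel. No library of either group came near the other, and the log2 fold change was 5.01 ± 0.44 (SE; adjusted p = 9.4e-05). Ankrd37, a small HIF-induced protein, went from 1.25, 1.26 and 2.0 CPM to 14.6, 16.2 and 11 (log2 fold change 3.2 ± 0.21 (SE; adjusted p = 1.7e-05)). Adm, the peptide adrenomedullin, rose by 3.0, Bnip3, which marks mitochondria for removal, by 2.54, the oxygen sensor Egln3 by 2.09, Car9 by 1.5 and Vegfa by 0.72 on the log2 scale. The glucose transporter Slc2a1 rose by 1.01, Pfkl by 1.06, Aldoa by 1.13, Eno1 by 1.0 and Ldha, which makes lactate, by 1.15 on the log2 scale. Ldha stood at 673, 715 and 716 CPM against 1276, 1529.7 and 1879. Gapdh was counted at only 10.8, 11.8 and 12 CPM in Matrigel. It has many near-identical pseudogenes that can take or void its reads, so its value is uncertain.

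The promoters of Ankrd37 (chr8:45999801-46000100, minus strand) and Slc16a3 (chr11:120948817-120949116, plus strand; GRCm38.p6, RefSeq) are shown because each holds the HIF letters more than once on the printed strand. The capitals mark ACGTG.
Ankrd37: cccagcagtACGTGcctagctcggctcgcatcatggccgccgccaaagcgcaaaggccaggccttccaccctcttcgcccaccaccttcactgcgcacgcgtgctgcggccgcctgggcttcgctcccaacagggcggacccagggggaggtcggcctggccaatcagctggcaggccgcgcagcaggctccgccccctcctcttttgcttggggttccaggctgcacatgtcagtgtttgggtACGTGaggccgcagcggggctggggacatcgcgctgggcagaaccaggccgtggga
Slc16a3: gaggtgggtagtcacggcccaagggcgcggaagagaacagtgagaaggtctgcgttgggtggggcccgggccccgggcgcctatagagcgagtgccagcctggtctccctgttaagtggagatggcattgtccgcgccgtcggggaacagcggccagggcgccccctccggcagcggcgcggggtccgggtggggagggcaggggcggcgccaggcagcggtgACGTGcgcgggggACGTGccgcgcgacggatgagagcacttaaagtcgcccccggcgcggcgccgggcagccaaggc
The matches begin 241 and 6 bases before the start of Ankrd37 and 27 and 14 bases before that of Slc16a3. On either strand, ACGTG was found in 15 of 22 promoters (68.2%) of the hypoxia genes that rose and in 9 of 20 (45.0%) of the glycolysis genes that rose. It was found in 3468 of 13789 (25.2%) promoters of tested genes and in 250 of 1019 (24.5%) of all genes that rose. The letters are also the core of the E-box CACGTG, and the lists name known targets.

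Hypoxia genes such as Slc16a3 also stood high in the non-degradable gel. Slc16a3 stood at 242, 170.5 and 349 CPM there and Ldha at 2033, 1707 and 2411. No member of the hypoxia list passed the test between the PEG gels, and in the glycolysis list only the uncertain Gapdh did, at -0.89. The median difference, degradable over non-degradable, was -0.35 for the hypoxia and -0.34 for the glycolysis list. Of 33 tested subunits of oxidative phosphorylation 1 fell (3.03%, against 4.79% of all tested genes) and none rose. None fell without Matrigel replicate 2 or 3 or degradable PEG replicate 1, and 3 fell without degradable PEG replicate 2. Of 27 fatty acid oxidation genes 6 fell (2 without Matrigel replicate 1 or 3) and none rose, with a log2 fold change of -0.48 for Acot1.

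**Figure D3:**
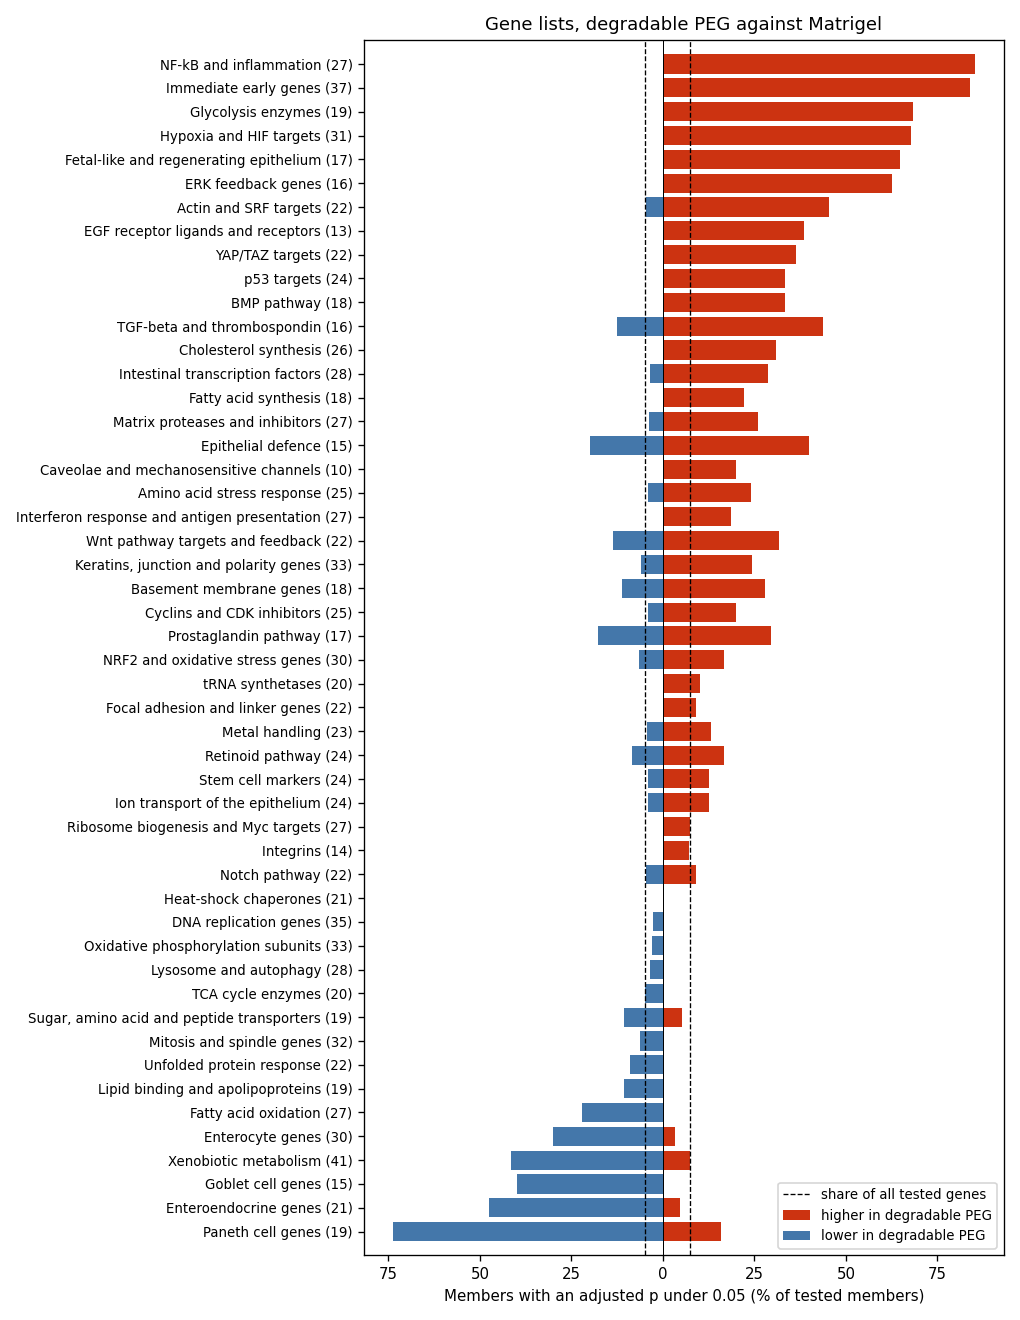
Percent of the tested members of each gene list (number in brackets; lists with at least 10 tested members) that were higher (to the right) or lower (to the left) in degradable PEG than in Matrigel. The dashed lines mark the shares over all tested genes, 7.42% higher and 4.79% lower.

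Isx had the smallest p-value of all tested genes. This homeobox factor is made in intestinal epithelium, is induced by retinoic acid and is known to repress Bco1, which cleaves beta-carotene, and the lipid receptor Scarb1 (ENSMUSG00000031621, chromosome 8 from 74873173 to 74893506, plus strand). Its level was 2.05, 0.842 and 0.352 CPM in Matrigel and 129.7, 105 and 122 in the degradable gel, with a log2 fold change of 6.83 ± 0.33 (SE; adjusted p = 4.8e-06). The non-degradable libraries, at 185, 176 and 212 CPM, were higher still, but the difference between the PEG gels did not pass (-0.69 ± 0.23 (SE; adjusted p = 0.21)). Bco1 stood at 6.04, 5.41 and 5.79 CPM and 5.89, 6.93 and 8.45, and Scarb1 at 83.4, 80.7 and 84 and 77.2, 83.4 and 82.7, so that both overlapped between the matrices. Rarb, a retinoic acid receptor that retinoic acid induces, rose from 1.66, 1.73 and 1.23 CPM to 6.65, 5.2 and 5.51 (log2 fold change 1.91 ± 0.18 (SE; adjusted p = 1.5e-04)), and Dhrs3, which turns retinal back into retinol, rose by 1.22. Rxra, the shared partner of these receptors, fell by 0.63 on the log2 scale. Of 24 tested retinoid pathway genes 4 rose and 2 fell. Among 28 intestinal transcription factors 8 rose and 1 fell: Elf3 rose by 1.05, Sox9 by 0.69 and Cdx2 by 0.28 on the log2 scale, and Nr5a2 fell by 0.61. The call of Cdx2 was lost without any 1 of the Matrigel libraries, non-degradable PEG replicate 1 or degradable PEG replicate 2 or 3. Hnf4a did not pass, with a log2 fold change of -0.15.

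Genes of the fetal-like, regenerating epithelium rose against Matrigel, but not against the non-degradable gel. This state is known from wounded gut, where cells lose adult markers for a time and make Ly6a, Clu and annexins. Of 17 tested members 11 rose and none fell, with a median log2 fold change of 1.02, and 10 rose without Matrigel replicate 1. Between the PEG gels, none was higher in the degradable gel and 2 were lower. The median difference, degradable over non-degradable, was 0.017. Ly6a, the Sca-1 antigen, stood at 14.4, 43.9 and 23.4 CPM in Matrigel and at 97.2, 119 and 104 in the degradable gel, with a log2 fold change of 1.96 ± 0.30 (SE; adjusted p = 0.0016). Clu, clusterin, went from 16.3, 28.9 and 17.3 to 64.5, 64.2 and 56.8 CPM (log2 fold change 1.57 ± 0.18 (SE; adjusted p = 3.7e-04)). Matrigel replicate 2 was the highest of its group for both genes. Anxa1 and Anxa3 rose by 1.01 and 1.38, Il1rn by 1.51 and Msln, mesothelin, by 2.3 on the log2 scale. Sprr2a3, a small proline-rich protein of stressed epithelium, stood at 1.56, 2.78 and 1.87 CPM against 56.7, 68.6 and 88.9, a log2 fold change of 5.09 ± 0.27 (SE; adjusted p = 6.0e-06). All 4 tested Sprr genes rose, but 13 of the 17 were not tested, and the filter keeps genes that are high in 1 matrix alone. Sprr2a1, Sprr2a2 and Sprr2a3 are near-identical copies, so the split of reads between them is uncertain. The keratins Krt8, Krt18 and Krt19 of simple epithelium rose by 0.75, 0.70 and 0.62, and Cldn4, a tight junction protein, by 1.48 on the log2 scale.

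Stem cell genes went both ways. Of 24 tested markers 3 rose (12.5%) and 1 fell (4.17%), 12 had a positive and 12 a negative log2 fold change, and the median was -0.039. The falls numbered 4 without degradable PEG replicate 1, and 2 when Matrigel replicate 1 or 2 was left out or when non-degradable PEG replicate 2 or 3 was. Ascl2, the Wnt-driven factor that specifies the stem cell, rose from 13.5, 14.9 and 17.5 CPM to 27.6, 32.2 and 27 (log2 fold change 0.92 ± 0.11 (SE; adjusted p = 4.8e-04)). Smoc2 fell by 0.49 on the log2 scale from a high level, 1944, 1901 and 1987 CPM against 1419.9, 1415 and 1323. The log2 fold change was -0.33 ± 0.13 (SE; adjusted p = 0.13) for Lgr5, -0.78 ± 0.28 (SE; adjusted p = 0.092) for Olfm4, -0.43 ± 0.14 (SE; adjusted p = 0.065) for Bmi1, a Polycomb subunit, and 0.21 ± 0.088 (SE; adjusted p = 0.15) for Axin2. Lgr5 passed as lower without degradable PEG replicate 1 (adjusted p = 0.031), Olfm4 when replicate 2 of Matrigel (0.034) or of the non-degradable gel (0.049) was left out, and Bmi1 without non-degradable PEG replicate 3 (0.037) or degradable PEG replicate 1 (0.016) and with DESeq2 (0.027). With no filter on low counts all 3 passed (edgeR adjusted p of 0.033, 0.0033 and 0.0061). Axin2 passed as higher without degradable PEG replicate 2 (edgeR adjusted p = 0.030). Of 22 tested Wnt targets and feedback genes 7 rose (3 and 4 without Matrigel replicates 1 and 3, 4 without degradable PEG replicate 3) and 3 fell (1 without Matrigel replicate 3 or degradable PEG replicate 2 or 3, and 5 without degradable PEG replicate 1), among them Nkd1, an inhibitor of the pathway, with a log2 fold change of -0.81. Hes1, the Notch target that holds cells out of the secretory fate, rose from 76, 66.8 and 61.5 CPM to 156, 238 and 224 (1.6 ± 0.16 (SE; adjusted p = 1.6e-04)), while the ligand Dll4, made by secretory precursors, fell by 0.63 on the log2 scale, a call lost without Matrigel replicate 1 or degradable PEG replicate 2 or 3. Of 22 Notch pathway genes 2 rose (9.09%) and 1 fell (4.55%), against 7.42% and 4.79% of all tested genes. The falls numbered 4 without degradable PEG replicate 1. Id1 and Id3, targets of BMP signals, rose by 2.91 and 2.47, and the ligand Bmp2 by 1.92 on the log2 scale.

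Genes of mitosis had log2 fold changes below 0, of which few passed the test. Over all tested genes 4.79% fell. None of 35 DNA replication genes rose and 1 (2.86%), Prim1, fell, with a log2 fold change of -0.33. None of 32 mitosis and spindle genes rose and 2 (6.25%), Kif11 and Nusap1, fell, with log2 fold changes of -0.36 and -0.32. All 3 calls were lost without Matrigel replicate 1 or 3 or degradable PEG replicate 3, those of Prim1 and Kif11 also without Matrigel replicate 2, and that of Kif11 also without non-degradable PEG replicate 1 or degradable PEG replicate 2. The number of mitosis genes that fell was 6 without degradable PEG replicate 1, 4 without non-degradable PEG replicate 3 and 7 with no filter on low counts. All 32 mitosis genes had a negative log2 fold change, with a median of -0.20, and 20 of them did not overlap between the groups, against 30.4% of all tested genes. Mki67, the proliferation marker, stood at 1091, 946 and 972 CPM and 955, 836 and 696, and its groups overlapped. Of 24 p53 targets 8 rose (5 without Matrigel replicate 1 or degradable PEG replicate 3) and none fell. Gdf15, a stress hormone, stood at 12.4, 17.4 and 10.8 CPM against 56.5, 60.4 and 53.7 and rose by 2.07, and Pmaip1, the death protein Noxa, rose by 1.79 on the log2 scale. Cdkn2a, which encodes p16 and p19Arf, rose by 1.49, and Cdkn1a by 0.69 on the log2 scale, a call lost without Matrigel replicate 1 or 3 or degradable PEG replicate 3 (edgeR adjusted p of 0.060, 0.062 and 0.060).

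Paneth cell genes had the lowest median of the lists described. Paneth cells sit beside the stem cells and secrete lysozyme and alpha-defensins. Of 19 tested Paneth genes 14 fell and 3 rose, with a median log2 fold change of -2.97, and 12 fell without Matrigel replicate 1. Lyz1, lysozyme (ENSMUSG00000069515, chromosome 10 from 117287797 to 117292868, minus strand), stood at 716, 327 and 466 CPM in Matrigel and 87.8, 53.2 and 51.1 in the degradable gel, with a log2 fold change of -2.97 ± 0.34 (SE; adjusted p = 3.6e-04). Defa24, the most abundant of the alpha-defensins named here, went from 333, 162 and 202 CPM to 34.3, 21.2 and 18.3 (-3.24 ± 0.34 (SE; adjusted p = 2.2e-04)), and Defa30 from 63.4, 21.9 and 35.8 to 3.26, 2.03 and 1.6 (-4.13 ± 0.45 (SE; adjusted p = 2.5e-04)). Replicate 1 was the highest library of both matrices for these 3 genes, and the matrices did not overlap. All 9 tested alpha-defensins fell, whichever library was left out. The other 30 of 39 alpha-defensins were not tested. The filter keeps genes that are high in 1 matrix alone, so this count is no independent evidence. The alpha-defensins are near-identical copies, and how reads were split among them is uncertain. Wnt3, the Wnt ligand made by Paneth cells, fell by 1.31 on the log2 scale. The 3 members that rose were Pla2g2a, a phospholipase that kills bacteria (1.37), Nupr1, a stress factor (0.99), and Mmp7.

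Goblet and enteroendocrine genes fell too. Of 15 tested goblet genes 6 fell and none rose, and of 21 enteroendocrine genes 10 fell and 1, Isl1, rose (1.37, a call lost without Matrigel replicate 1 or 2 or degradable PEG replicate 2 or 3). Without Matrigel replicate 1 the falls numbered 5 and 8. Tff3, a trefoil peptide of mucus, stood at 216, 149.5 and 143 CPM in Matrigel and 49.1, 49 and 36.2 in the degradable gel (log2 fold change -1.92 ± 0.18 (SE; adjusted p = 1.4e-04)). Fcgbp, a mucus protein, went from 788, 418 and 413 to 137, 90.6 and 89.9 CPM, and Spdef, the goblet and Paneth maturation factor, fell by 2.32 on the log2 scale. Muc2, the main mucin, fell by 1.82 on the log2 scale, a call lost without Matrigel replicate 1 or degradable PEG replicate 2 or 3 (adjusted p of 0.079, 0.073 and 0.083). Neurog3, the factor that starts the endocrine fate (chromosome 10 from 62133090 to 62134763, plus strand), stood at 49.9, 31.1 and 32.5 CPM against 10.4, 6.56 and 5.4 with a log2 fold change of -2.34 ± 0.29 (SE; adjusted p = 5.6e-04). Its targets Neurod1 and Rfx6 fell, with log2 fold changes of -1.72 and -2.21, and Chgb, a granule protein, from 87.6, 51.6 and 69.2 CPM to 21.1, 15.4 and 15.4. Of 15 listed tuft cell genes only 6 were tested. Of these 4 fell (66.7%, against 4.79% of all tested genes), and 2 had positive log2 fold changes that did not pass. The marker Dclk1 was not tested. The log2 fold change was -2.77 for the taste channel Trpm5 and -1.27 for Pou2f3, the master factor of the lineage. Hepacam2 and Kit, known from secretory precursors, fell, with log2 fold changes of -2.34 and -2.05.

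Secretory genes were also low in the non-degradable gel. No Paneth, goblet or tuft gene passed the test between the PEG gels, and 1 enteroendocrine gene, Nts, did. Lyz1 stood at 123, 58.4 and 71.1 CPM and Neurog3 at 7.21, 4.24 and 3.55 in the non-degradable libraries. The difference between the PEG gels was -0.39 ± 0.32 (SE; adjusted p = 0.6) for Lyz1 and 0.58 ± 0.31 (SE; adjusted p = 0.41) for Neurog3. A p that misses the threshold does not show that the gels act alike.

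**Figure D4:**
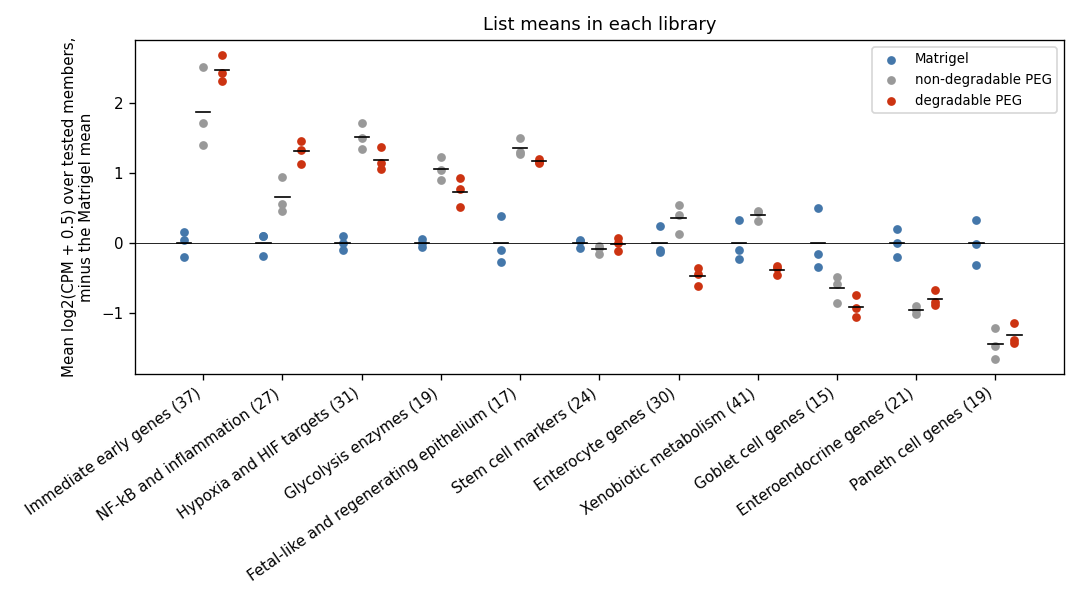
Mean of log2(CPM + 0.5) over the tested members of 11 gene lists (number in brackets) in each library, minus the mean of the Matrigel libraries, with a bar at each group's mean. Both PEG gels lie on the same side of Matrigel for most lists, but for the enterocyte and xenobiotic lists all degradable libraries lie below all Matrigel ones while the non-degradable group mean lies above 0.

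Some enterocyte genes were lower in the degradable gel than in both other matrices. Of 30 tested, 9 fell and 1 rose against Matrigel, with 7 falls left without Matrigel replicate 1, and 11 were lower than in the non-degradable gel. Without degradable PEG replicate 2, only 4 of all tested genes were lower than in the non-degradable gel, so the 11 did not hold there. Sis, the brush border enzyme sucrase-isomaltase (ENSMUSG00000027790, chromosome 3 from 72888557 to 72967863, minus strand), stood at 51.2, 28.5 and 24.2 CPM in Matrigel, 38.8, 23.6 and 48.7 in the non-degradable and 10.02, 4.03 and 6.85 in the degradable gel. Every degradable library was below the other 6. The log2 fold change was -2.31 ± 0.37 (SE; adjusted p = 0.0023) against Matrigel and -2.41 ± 0.37 (SE; adjusted p = 0.015) against the non-degradable gel. Enpep, a brush border peptidase, went from 71.1, 58.7 and 67.2 CPM in Matrigel to 24.5, 21.1 and 31.4 against 49.96, 52.3 and 63.9 in the non-degradable gel, with log2 fold changes of -1.36 and -1.11. Fabp1, which binds fatty acids, fell by 1.87 on the log2 scale against Matrigel, a call lost without Matrigel replicate 1 or degradable PEG replicate 2 or 3 (adjusted p of 0.052, 0.073 and 0.058), and the log2 fold change was -2.85 against the non-degradable gel. Alpi, intestinal alkaline phosphatase, did not pass against Matrigel (-0.87 ± 0.37 (SE; adjusted p = 0.16)) and was lower than in the non-degradable gel, with a log2 fold change of -2.24. Between the PEG gels, the calls of Sis, Fabp1 and Alpi were each lost without non-degradable PEG replicate 1 or degradable PEG replicate 2. The structural gene Vil1, villin, was the 1 that rose (0.29), and this call was lost without any 1 of the Matrigel libraries, non-degradable PEG replicate 1 or degradable PEG replicate 2 or 3.

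Enzymes that clear drugs and foreign compounds behaved in the same manner. These genes are a hallmark of mature enterocytes and are driven by nuclear receptors such as Nr1i2 and Nr1i3. Of 41 tested, 17 fell and 3 rose (1 without Matrigel replicate 3 or degradable PEG replicate 3) against Matrigel, and 18 were lower than in the non-degradable gel and none higher. The 18 did not hold with 1 library left out. Over all tested genes, only 4 were lower between the PEG gels without degradable PEG replicate 2, and 17 without non-degradable PEG replicate 1. Ces2a, a carboxylesterase, stood at 357, 177 and 169 CPM in Matrigel, 267, 220.2 and 243 in the non-degradable and 93.2, 82.2 and 79.6 in the degradable gel. Matrigel replicate 1 was highest, and the degradable group lay below both others, with log2 fold changes of -1.46 ± 0.24 (SE; adjusted p = 0.0024) and -1.52 ± 0.24 (SE; adjusted p = 0.016). The call against the non-degradable gel was lost without non-degradable PEG replicate 1 or degradable PEG replicate 2. Akr1c19, an aldo-keto reductase, fell, with log2 fold changes of -1.09 and -1.01 in the same order. By family, 7 of 9 tested UDP-glucuronosyltransferases, 6 of 8 carboxylesterases and 11 of 39 cytochrome P450 genes fell, while no glucuronosyltransferase or carboxylesterase and 2 P450 genes rose (none without Matrigel replicate 1). Ugt2b36 and Ugt2a3 fell, with log2 fold changes of -1.69 and -1.98. Maoa, which breaks down monoamines, and Abat, which breaks down GABA, fell, with log2 fold changes of -0.65 and -1.26. Otc, the urea cycle enzyme of enterocytes, fell from 86.2, 51.4 and 66.8 CPM to 25.6, 24.1 and 27.

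Across all genes the difference between the PEG gels was small and fragile. The test found 190 genes (1.28%), 69 higher (0.464%) and 121 lower (0.814%) in the degradable gel, and 2203 at an unadjusted p under 0.05. Of the 1815 genes that differed from Matrigel, 114 also differed from the non-degradable gel and 1701 did not pass there. Both tests use the degradable libraries, so this count is no independent evidence. Of the genes above Matrigel, 48 were also above the non-degradable gel and 18 below it, and of those below Matrigel, 48 were below the non-degradable gel and none above. Without degradable PEG replicate 2 only 19 genes passed between the PEG gels, and without non-degradable PEG replicate 1 only 28. The 8 NF-kB list members that were higher than in the non-degradable gel were Tnf (1.89), Tnfaip3 (1.31), Cxcl10 (2.23), Cxcl2 (2.87), Cxcl5 (1.34), Csf1 (1.22), Zc3h12a (0.74) and Ccl20 (1.34), with log2 fold changes in brackets. Each of these 8 calls was lost in at least 1 alternative run. Acta1 (1.85), Nox1 (1.83), Zyx (0.94), Enpep, Akr1c19 and Nts (-2.07) were the 6 named genes whose call held in every alternative run. The call of Thbs1 was lost only without non-degradable PEG replicate 1 (adjusted p = 0.053). Slc30a10, a manganese exporter, lay between the other matrices, at 0.282, 0.189 and 0.352 CPM in Matrigel, 5.52, 4.45 and 8.48 in the degradable and 18.9, 16.6 and 25 in the non-degradable gel.

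**Figure D5:**
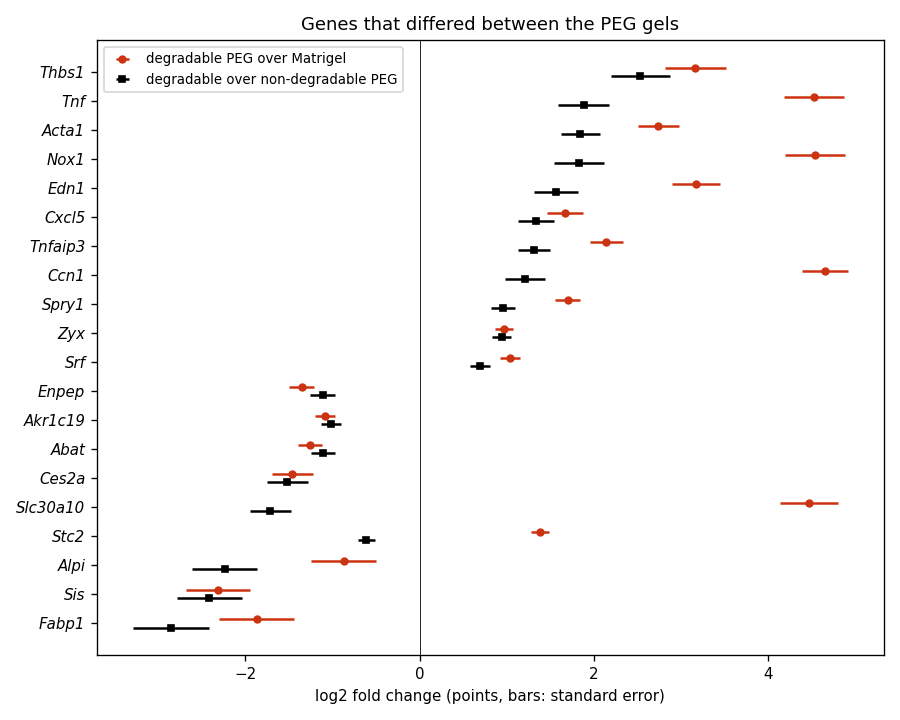
Log2 fold change with standard error for 20 genes that differed between the PEG gels, against Matrigel (red) and against the non-degradable gel (black). Thbs1, Tnf and Nox1 were above both other matrices, Sis and Enpep below both, and Slc30a10 and Stc2 between them.

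Of 26 tested cholesterol synthesis genes 8 rose (30.8%, against 7.42% of all tested genes) and none fell, and 23 had a positive log2 fold change. Insig1, the sterol sensor, stood at 163, 167 and 157 CPM against 257, 246 and 331 and rose by 0.77, and Scd1, which desaturates fatty acids, rose by 0.62 on the log2 scale. The count of cholesterol genes that rose was not stable. It was 3, 4 and 2 without Matrigel replicates 1, 2 and 3, and 2 without degradable PEG replicate 3. Among the genes with the smallest p-values outside these lists, Bhlhe40, a clock-linked repressor, went from 42.9, 49.3 and 39 CPM to 175, 181 and 157, with a log2 fold change of 1.97 ± 0.12 (SE; adjusted p = 1.6e-05). Entpd8, an ectonucleotidase of the gut surface, rose by 2.69, Stc2, a secreted glycoprotein, by 1.38, and Pik3ap1, a signalling adaptor, fell from 15.1, 13.7 and 13.7 CPM to 2.68, 3.31 and 3.36 (log2 fold change -2.18 ± 0.17 (SE; adjusted p = 5.1e-05)). Bhlhe40 and Entpd8 each overlap another annotated gene, which for Entpd8 is Noxa1. The strand setting used in counting is not given, so reads of overlapping genes cannot be told apart with certainty. The same holds for many other genes named above, among them Thbs1, Nox1, Acta1, Zyx, Ccn2, Atf3, Junb, Srf, Ankrd37, Aldoa, Cxcl10, Enpep, Akr1c19, Slc30a10 and Neurog3. It also holds for the oxidase subunits Noxa1, Noxo1 and Cyba.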

How the data were processed

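RNA-seq of 9 libraries (3 each from Matrigel, non-degradable PEG and degradable PEG) was analysed from the gene count tables as the authors deposited them, 1 per library. Per the labels' protocols the libraries were made with a stranded mRNA kit. Per the submitters' processing notes, the tools were cutadapt 1.3, STAR 2.4.2a and HTSeq 0.6.1 with the build GRCm38. No source used here gives the strand setting or the gene annotation. The 5 tally rows were left out of library sizes and tests: reads in no gene came to 7.29 to 11.2% and ambiguous reads to 1.10 to 1.16% of uniquely aligned reads in the 6 compared libraries, and reads with several alignments to 65.2 to 71.8 per 100 assigned. Multi-copy genes therefore lose reads. Of 46517 genes, 46005 had a symbol in GENCODE M21.

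All 9 libraries were fitted together with edgeR 4.0.16 (filterByExpr, TMM scaling, quasi-likelihood test) in R 4.3.3, and p-values were adjusted by Benjamini-Hochberg over 14870 genes. Errors are the standard errors of the log2 fold change. CPM were computed from deposited counts and TMM-scaled library sizes. The fit was tested on simulated data. Alternatives were RLE and upper-quartile scaling, DESeq2 1.42.0, limma-voom (limma 3.58.1), no filter, a mean of at least 10 CPM, the compared groups only, the replicate number as a block, and each library left out.

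The members and lists were chosen with earlier results of these data known. Named genes are the 12 largest changes in each direction among called genes averaging 5 CPM or more with a symbol and no overlap, the 10 smallest p-values in each direction, up to 4 called members of each list (3 of each family), a panel of 18 markers and the 8 largest differences in each direction between the PEG gels. Other genes named were chosen after their values were seen. Some list members that were counted are not reported here by name. Promoters (250 bases before to 50 after the start) are from RefSeq, and motifs for AP-1, TEAD, NRF2, AHR, TCF, CREB and the E-box were also searched, on both strands, but are not described. The kappaB search was added after the data were seen.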

Additional observations from a re-analysis of the deposited data

How the results depend on the processing

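Against Matrigel, requiring a mean of at least 10 CPM gave 943 genes (640 higher, 303 lower), with fewer genes tested. The 5 other scalings, tests and filters and the fit of the compared groups alone gave 1466 to 2322. Upper-quartile scaling changed the split to 70.7% higher from 60.8%. Leaving out 1 library gave 1086 (without Matrigel replicate 1) to 2395 genes (without degradable PEG replicate 1), 722 to 1287 higher and 364 to 1108 lower. The lower count was 460 and 404 without Matrigel replicates 2 and 3 and 433 without degradable PEG replicate 3.

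Between the PEG gels, 190 genes became 512 with DESeq2 (192 higher, 320 lower), 521 with no filter (180 and 341) and 100 with a mean of at least 10 CPM (42 and 58). Leaving out 1 library gave 19 (without degradable PEG replicate 2) to 242, 11 to 92 higher and 4 to 155 lower. The count was 124 without non-degradable PEG replicate 2 and 117 without degradable PEG replicate 1. The cause was not tested.

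With the replicate number as a block, 2783 genes differed from Matrigel (1552 higher, 1231 lower) and 542 between the PEG gels (188 and 354). Same-numbered libraries deviated together with correlations of 0.26, 0.071 and 0.23, and each number correlated best with itself. The labels do not say that the numbers mark a shared culture, so this is a hint from the data and no pairing was used. The block lost no call of a named gene. With it 10 mitosis genes (2 without) and 5 stem cell markers (1 without) fell, and Lgr5, Olfm4 and Bmi1 passed as lower.

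No called gene among those named changed direction in any alternative. Uncalled values near 0 did: Scarb1 was 0.014 with upper-quartile scaling and 0.0031 with a mean of at least 10 CPM, and -0.047 to 0.0071 with 1 library left out. Leaving out 1 library gave -0.17 to 0.36 for Wnt6 and -0.16 to 0.043 for Egfr. Of 344 called named genes, 55 lost their call without Matrigel replicate 1, 46 without Matrigel replicate 3 and 54 without degradable PEG replicate 3. At the median standard error of 0.11 and 3 libraries a group, small changes are not detectable.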

Other observations

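Several genes outside the groups above also differed between degradable PEG and Matrigel. Neat1, the long non-coding RNA that builds paraspeckles in the nucleus, stood at 176, 231 and 256 CPM in Matrigel and 854, 1168 and 802 in the degradable gel, a log2 fold change of 2.09 ± 0.17 (SE; adjusted p = 5.3e-05) by edgeR. The groups lay far apart. Among 306 tested lincRNA genes 38 (12.4%) rose and 3 (0.98%) fell. Txnip, which holds back glucose uptake and binds thioredoxin, stood at 255, 394 and 349.8 CPM against 826, 935 and 1002, and Nr1d1, a repressor of the circadian clock that overlaps Thra, at 18.3, 17.3 and 16.8 against 32.8, 37.5 and 32.1. Hist1h1c, a linker histone, rose by 1.22 on the log2 scale. Of 18 listed histone genes 9 were tested, and 4 of these rose (44.4%, against 7.42% of all tested genes) and none fell. Over the whole family of 68 replication-dependent histone genes, 21 were tested, of which 5 rose (23.8%) and none fell.

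Chac1, which degrades glutathione in amino acid stress, rose from 1.13, 1.58 and 1.56 CPM to 4.34, 5.22 and 5.63, while Cth, which makes cysteine, fell from 109, 99.1 and 105 to 54.5, 66.5 and 65.4. Hpgd, which breaks down prostaglandins, fell by 0.48 on the log2 scale. Of 83 tested cytosolic ribosomal protein genes 18 (21.7%) fell and none rose, with a median log2 fold change of -0.19. The count was 9 with upper-quartile scaling, and it ranged from 4 (Matrigel replicate 2 left out) to 38 (degradable PEG replicate 2 left out). It was 7 and 11 when Matrigel replicate 1 or 3 was dropped, and 11 and 6 when degradable PEG replicate 1 or 3 was.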
